A study of Mus musculus with 2 samples.

Results

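The genes of the cytoplasmic ribosomal proteins were followed across neurons and glia of the mouse amygdala. They were taken by symbol as Rpl or Rps with a number, together with Rplp0, Rplp1, Rplp2 and Rpsa, leaving out pseudogenes and the Rps6k kinases. This gave 84 of the 32285 gene identifiers counted, of which 52 code for proteins of the large subunit and 32 for proteins of the small subunit. Of these, 4 carry a further letter or number in their symbol (Rps3a1, Rpl22l1, Rpl7l1 and Rpl36al) and were kept as members. The genes lie on 19 chromosomes, 4 of them on the X.

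Nuclei came from the amygdala of C57BL6/J mice aged 6 to 8 weeks and were profiled in droplets with a kit that tags the 5' end of transcripts. There was 1 library labelled Sema6d-/- (KO in this text) and 1 library labelled WT, so no difference between them was tested, and KO and WT stand for the libraries labelled so. Sema6d codes for a membrane-bound semaphorin, a guidance cue that binds plexins, and the series set out to describe gene expression in single amygdala cells of both genotypes. The number and sex of the mice behind each library, and which part of Sema6d is deleted, are not stated in the sources. Sema6d was counted at 686 CPM in KO nuclei, against 632 CPM in WT nuclei (CPM, UMIs per 1e+06 UMIs), so its counts were not lower in the library labelled KO, and with the deleted part unknown they do not check the label. Intervals given in parentheses are exact 95% intervals, which cover counting error only and say nothing of the spread between mice or between preparations.

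Each ribosome is built from a fixed set of these proteins, and their genes are active in every cell. Their mRNAs are short and abundant, mostly begin with a run of pyrimidines that lets the mTOR pathway control their translation, and are found mainly in the cytoplasm. In nuclei they are therefore seen as newly made RNA together with cytoplasmic RNA that stays with the nucleus or floats free in the suspension.

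Start regions are printed because these mRNAs are known by their first bases, and for 8 members whose ratio between the libraries had 1 direction in all 4 of the larger cell classes. They are 4 members higher in KO and, of those lower in KO, the 4 with the lowest mean ratio that have a single annotated start. Each sequence is the strand of the gene in RefSeq's GRCm38.p6 table, from 40 bases before to 20 bases after the annotated start, with runs of 6 or more pyrimidines in capitals. For Rps21 the first of its annotated starts is given.
Higher in KO, Rps21, chr2:180257339-180257398, plus strand: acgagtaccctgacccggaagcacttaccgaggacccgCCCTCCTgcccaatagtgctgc
Higher in KO, Rps27, chr3:90213629-90213688, minus strand: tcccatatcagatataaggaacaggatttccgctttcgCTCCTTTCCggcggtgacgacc
Higher in KO, Rpl37, chr15:5116573-5116632, plus strand: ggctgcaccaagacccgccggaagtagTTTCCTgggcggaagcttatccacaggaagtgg
Higher in KO, Rpl39, chrX:37085203-37085262, minus strand: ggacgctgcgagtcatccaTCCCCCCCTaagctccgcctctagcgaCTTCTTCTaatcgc
Lower in KO, Rpl12, chr2:32961672-32961731, plus strand: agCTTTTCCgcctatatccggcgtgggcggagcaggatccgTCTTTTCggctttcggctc
Lower in KO, Rps3, chr7:99483690-99483749, minus strand: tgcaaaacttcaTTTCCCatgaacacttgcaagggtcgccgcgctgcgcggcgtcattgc
Lower in KO, Rpl13a, chr7:45128726-45128785, minus strand: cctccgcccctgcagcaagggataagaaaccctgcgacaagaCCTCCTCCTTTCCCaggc
Lower in KO, Rpl26, chr11:68901526-68901585, plus strand: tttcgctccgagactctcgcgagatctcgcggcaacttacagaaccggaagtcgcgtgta
Runs near the start occur in both sets, and Rpl26 has none in its window.

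Of the 84 members, 64 had entries in this table, with 76 annotated starts. A run of at least 6 pyrimidines on the gene's strand within 20 bases of the start was found at 59.2% of the members' starts, against 37.5% of the 32851 starts in the whole table. In the window from 250 bases before to 50 bases after the start, searched on both strands, CCGGAAG, the core bound by ETS-family factors such as GABP, stood at 35.5% of the members' starts and 8.86% of all starts. AAGATGGC, the core of the YY1 motif, stood at 10.5% and 2.75%, and GGGCGG, the GC box, at 60.5% and 35.7%. TATAAA was the exception, with 9.21% of the members' starts and 13.6% of all starts. CCGGAAG and AAGATGGC can share their AAG, so a start may count for both. These matches describe the letters in the windows and say nothing of which factors bind there.

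After filtering, the KO library held 7911 nuclei with 56736373 UMIs and the WT library 10369 nuclei with 79305700 UMIs, with medians of 6418 and 7196 UMIs per nucleus. Mitochondrially encoded RNA, which comes from outside the nucleus, was lower in KO, with medians of 0.424% of a nucleus's UMIs in KO and 0.749% in WT. A set of 128 barcodes occurred in both libraries. Marker gates placed 6472 KO nuclei and 8349 WT nuclei in 6 classes, and the summed markers of each glial class were highest in that class, with the 10 microglial markers at 13190 CPM in KO and 9635 CPM in WT microglia. In GABA neurons the 6 GABA markers summed to 1008 CPM in KO and 886 CPM in WT, and the 7 glutamate markers to 106 CPM in KO and 119 CPM in WT. Glutamate neurons had 1250 CPM in KO and 1275 CPM in WT of the glutamate markers, and 61.4 CPM in KO and 68.3 CPM in WT of the GABA markers. The 8 markers of oligodendrocyte precursors summed to about as much in neurons as the GABA or glutamate list did. They had 977 CPM in KO and 1017 CPM in WT GABA neurons and 1337 CPM in KO and 1302 CPM in WT glutamate neurons. In precursors they had 13469 CPM in KO and 13939 CPM in WT. The 8 general neuron markers, which the gate set against the precursor list, had 11774 CPM in KO and 10402 CPM in WT GABA neurons. In glutamate neurons they had 13525 CPM in KO and 12442 CPM in WT. The gate's lead over the next class was near its limit for 9.52% of KO nuclei and 8.09% of WT nuclei. Of the nuclei gated as glutamate neurons, 78.7% lay in a cluster whose gated nuclei were mostly of that class. In the other classes this was 97.1% (oligodendrocytes) to 99.8% (astrocytes).

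The ribosomal protein genes took a larger share of the RNA in glia than in neurons. In microglia they made up 1.33% (1.29 to 1.37) of the UMIs in KO and 1.26% (1.20 to 1.32) in WT. Oligodendrocytes followed with 1.003% in KO and 0.956% in WT. Astrocytes stood at 0.718% in KO and 0.816% in WT, and oligodendrocyte precursors at 0.690% in KO and 0.737% in WT, so these neighbours lay close together. GABA neurons had 0.386% (0.383 to 0.388) in KO and 0.419% (0.417 to 0.421) in WT, and glutamate neurons were lowest, with 0.329% in KO and 0.340% in WT. All 15 pairs of classes stood in the same order in both libraries.

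**Figure D1:**
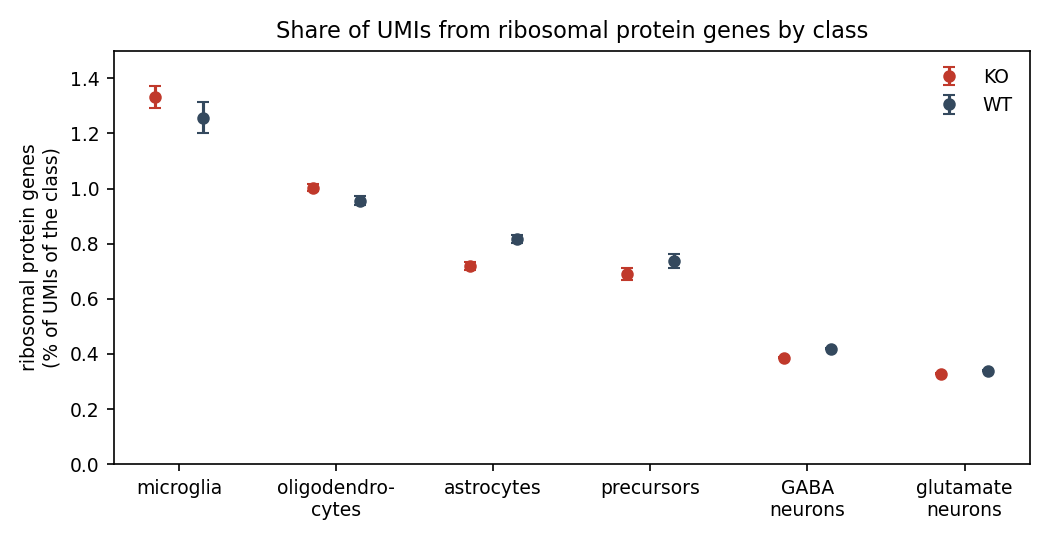
Share of UMIs from the 84 ribosomal protein genes (y axis, % of the UMIs of the class) in 6 marker-gated classes, with the KO library left of the WT library; points are 1 library each and bars are exact 95% binomial intervals for counting error. Microglia are highest (1.33% in KO, 1.26% in WT) and glutamate neurons lowest (0.329% in KO, 0.340% in WT) in both libraries.

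Neuronal nuclei also carried more UMIs, with medians of 8315 in KO and 7886 in WT GABA neurons, against 1551 in KO and 1562 in WT microglia. Among nuclei of 1500 to 4000 UMIs, the share was 0.716% in KO (177 nuclei) and 0.705% in WT (258 nuclei) for GABA neurons. Astrocytes had 0.704% in KO (457 nuclei) and 0.817% in WT (507 nuclei), so within this window the gap was gone in KO and smaller in WT. The window held few of the 3234 KO and 5389 WT GABA neurons, from their shallow end, but most of the 502 KO and 550 WT astrocytes. It therefore does not stand for GABA neurons as a class. Precursors had 0.689% in KO and 0.693% in WT at this depth, slightly below the GABA neurons in both libraries with overlapping intervals. Glutamate neurons had 0.628% in KO (36 nuclei) and 0.727% in WT (44 nuclei). Oligodendrocytes (1.07% in KO, 1.11% in WT) and microglia (1.44% in KO, 1.35% in WT) remained highest at this depth. The part of nuclear size, depth and cytoplasmic RNA in the difference between classes was not tested.

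Among neurons, 10 subtypes had at least 20 nuclei in each library. Their shares ran from 0.276% in KO and 0.290% in WT, in glutamate neurons marked by Pdzrn3 and Nwd2, up to 0.526% in KO and 0.575% in WT, in thalamic-type neurons, a small group of 27 KO and 33 WT nuclei. The share was lower in KO in all 10 subtypes, and in 6 of them the interval of the ratio lay below 0 on the log2 scale. The D2 medium spiny neurons, striatal-type projection neurons with the dopamine D2 receptor, had 0.369% in KO and 0.418% in WT, a log2 ratio of -0.18 (-0.20 to -0.16). D1 medium spiny neurons had 0.358% in KO and 0.384% in WT, a log2 ratio of -0.10. Interneurons of the medial ganglionic eminence type, which include the parvalbumin and somatostatin cells, had 0.385% in KO and 0.438% in WT, a log2 ratio of -0.19. In basolateral amygdala neurons the shares were 0.331% in KO and 0.332% in WT. All these subtypes come from the same pair of libraries and are not replicates of each other.

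Most members were lower in KO GABA neurons, but by little. Rpl3l, Rpl10l and Rpl39l had fewer than 100 UMIs there. Of the other 81 members, 67 had a ratio below 0 and 14 above, with a median log2 ratio of KO over WT of -0.13, while the median of all 14142 genes at that depth was 0.04. Among all 14142 genes, 6123 had a ratio below 0 and 8019 above. The interval lay below 0 for 44 members, above 0 for 7 and held 0 for 30. Such intervals narrow as counts grow, and they were not counted over all genes in any class. Past 0.32 on the log2 scale, the size used throughout, 0 members were higher (14.5% of all genes were) and 3 lower (8.14% of all genes were). These shares are not matched for counts. Of the 81 members 80 had at least 1000 UMIs, while all genes were taken from 100 UMIs, where counting error is larger. The share among genes with counts like those of the members was not computed. Large-subunit members had a median of -0.12 and small-subunit members of -0.13.

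The 3 members lower past 0.32 in GABA neurons belong to different places of the ribosome. Rpl3, a core protein near the peptidyl transferase centre, had 64.6 CPM (1857 UMIs) in KO and 86.9 CPM (3964 UMIs) in WT, a log2 ratio of -0.43 (-0.51 to -0.35). Rplp1, an acidic protein of the stalk that recruits elongation factors, had 83.4 CPM in KO and 111 CPM in WT, a log2 ratio of -0.42 (-0.49 to -0.35). Its stalk partner Rplp2 had 39.8 CPM in KO and 41.2 CPM in WT, and the stalk base Rplp0 24.7 CPM in KO and 27.8 CPM in WT. Rps19, a small-subunit protein whose loss causes Diamond-Blackfan anaemia, had 49.9 CPM in KO and 64.7 CPM in WT, a log2 ratio of -0.37 (-0.47 to -0.28). Rpl12, at the base of the stalk, and Rps12, of the small subunit, came next, with log2 ratios of -0.31 and -0.29.

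At the other end stood Rpl22l1, with 37.7 CPM in KO and 31.1 CPM in WT, a log2 ratio of 0.28 (0.16 to 0.39). Rps21 had 64.6 CPM in KO and 55.5 CPM in WT, a log2 ratio of 0.22 (0.13 to 0.30). Rps28, which lies near the mRNA exit of the small subunit, had 26.8 CPM in KO and 23.4 CPM in WT, and Rps27, a zinc-binding small-subunit protein, 39.1 CPM in KO and 34.9 CPM in WT. Rpl38, which in the mouse is needed for translation of Hox mRNAs, had 39.8 CPM in KO and 36.5 CPM in WT. Apart from Rpl22l1, these members have coding sequences under 300 bases.

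Members with other known roles lay within the same narrow range in GABA neurons. Rpl5 and Rpl11, which carry the 5S ribosomal RNA and bind MDM2 when free of the ribosome, had log2 ratios of -0.16 and -0.18. Rps6, which codes for the target of S6 kinase, had 29.7 CPM in KO and 34.1 CPM in WT, a log2 ratio of -0.20. Rps27a, made as a fusion with ubiquitin, had 69.3 CPM in KO and 70.3 CPM in WT. Rpsa, also known as the laminin receptor, had 88.7 CPM in KO and 103 CPM in WT. The 4 X-linked members Rpl10, Rpl36a, Rpl39 and Rps4x had log2 ratios of -0.03, -0.01, 0.12 and -0.13.

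In glutamate neurons the members stood on both sides of 0, with 34 higher and 46 lower of the 80 with at least 100 UMIs. Their median log2 ratio was -0.04, against 0.03 for all 12277 genes at that depth, of which 6625 were higher and 5652 lower. Past 0.32, 4 members were higher (14.8% of all genes were) and 5 lower (9.59% of all genes were). The 5 lowest again held Rplp1 (63.9 CPM in KO, 85.5 CPM in WT), Rpl3 (50.3 CPM in KO, 67.1 CPM in WT) and Rps19 (38.1 CPM in KO, 49.9 CPM in WT). With them were Rps3, a protein at the mRNA entry, with 29.9 CPM in KO and 39.7 CPM in WT, and Rpl23, with 35.7 CPM in KO and 45.2 CPM in WT. Among the highest were Rps28 (24.9 CPM in KO, 18.6 CPM in WT), Rps21 (53.7 CPM in KO, 41.5 CPM in WT) and Rpl36 (37.7 CPM in KO, 29.5 CPM in WT).

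Astrocytes had the lowest median of the members, -0.22, against -0.03 for all genes there. Of 76 members with at least 100 UMIs, 20 were lower past 0.32 on the log2 scale (16% of all genes were) and 0 higher (13.8% of all genes were). Below 0 stood 58 of the 76 members, and 2790 of all 5152 genes at that depth. Counts were smaller, and the interval lay below 0 for 18 members. Rpsa had 148 CPM in KO and 216 CPM in WT, a log2 ratio of -0.55 (-0.81 to -0.30). Rpl4, a protein of the exit tunnel, had 39.7 CPM in KO and 64.7 CPM in WT, and Rpl29 had 80.2 CPM in KO and 123 CPM in WT. Rps28, among the highest in the 3 other large classes, was the lowest here, with 44 UMIs in KO and 83 in WT and a log2 ratio of -0.77 (-1.33 to -0.22). Rps27, Rpl7a, Rplp2, Rpl37 and Rpl34 had the highest ratios, between 0.26 and 0.31, and all 5 intervals held 0.

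Oligodendrocytes went the other way, with 52 of 79 members above 0 and a median of 0.06, against -0.01 for all genes. Of all 6163 genes at that depth, 3039 were above 0. Past 0.32, 7 were higher (16.3% of all genes were) and 4 lower (16.1% of all genes were). Rpl36 had 115 CPM in KO and 80.8 CPM in WT, and Rps28 65.6 CPM in KO and 46.2 CPM in WT, both with a log2 ratio of 0.51. Rpl37a had 157 CPM in KO and 115 CPM in WT, and Rplp2 111 CPM in KO and 81.5 CPM in WT. The lowest were Rpl5, Rpl23a, which sits at the tunnel exit, Rpl22, Rpl12 and Rpl13a, a protein also known from translational control in inflammation, with log2 ratios of -0.55, -0.51, -0.40, -0.36 and -0.31. In oligodendrocyte precursors only 21 members reached 100 UMIs, with a median of -0.0045, 1 higher past 0.32 on the log2 scale (13.8% of all genes were) and 4 lower (14.3% of all genes were). In microglia 14 members did, with a median of 0.08, 5 higher (23.2% of all genes were) and 1 lower (16% of all genes were).

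**Figure D2:**
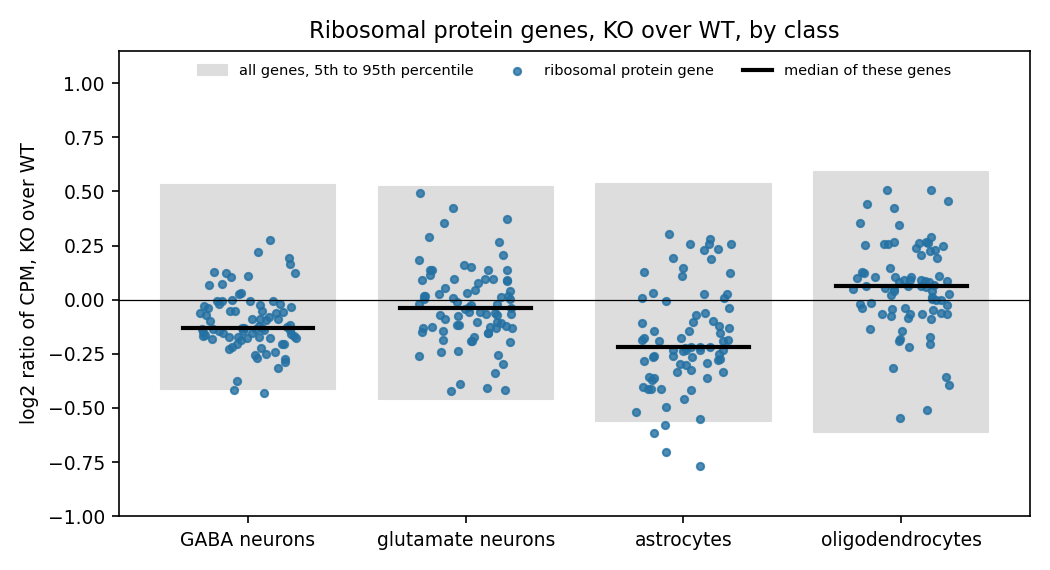
Log2 ratio of CPM, KO over WT (y axis), of each ribosomal protein gene with at least 100 UMIs in 4 classes; points are genes, black lines their medians, and grey bands run from the 5th to the 95th percentile of all genes with at least 100 UMIs. The medians are -0.13 in GABA neurons, -0.04 in glutamate neurons, -0.22 in astrocytes and 0.06 in oligodendrocytes, and most points lie inside the bands.

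Of the 76 members with at least 100 UMIs in each of these 4 classes, 5 were higher in KO in all 4 and 13 lower in all 4. Of the 4384 genes with as many UMIs, 17% were higher and 19.8% lower in all 4, so members did not keep 1 direction more often than genes at large. The higher ones were Rpl36, Rpl37, Rpl39, Rps21 and Rps27. Rpl39, a tiny protein that lines the exit tunnel, had 24.1, 18.7, 49.7 and 83.2 CPM in KO GABA neurons, glutamate neurons, astrocytes and oligodendrocytes, against 22.1, 17.3, 43.6 and 69.3 CPM in WT. The lower ones were Rpl3, Rpl7, Rpl12, Rpl13a, Rpl14, Rpl18, Rpl19, Rpl24, Rpl26, Rpl29, Rps3, Rps19 and Rps20. With TMM scaling Rpl29 and Rps20 no longer kept 1 direction, and with median-of-ratios scaling Rpl37 and Rps20 did not, while all the others did under both. The lower direction in all 4 classes did not outlast the mitochondrial limits. Under a ceiling of 1% only Rpl12 of the 13 was still lower in all 4. Of the 13, 9 were still below 0 in GABA neurons under this ceiling and 8 in glutamate neurons. From 0.2% to 0.7% none was lower in all 4, with 2 below 0 in GABA neurons and 0 in glutamate neurons. Of the 5 higher ones, 5 and 4 stayed higher in all 4 under these limits. From 0.2% to 0.7%, GABA neurons kept 81 members with at least 100 UMIs and glutamate neurons 80, but astrocytes 9 and oligodendrocytes 30. Some directions there, such as those of Rps21 and Rpl39 in astrocytes, therefore rest on fewer than 100 UMIs. Rpl3 had the lowest mean over the 4 classes, -0.37.

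The ratios went with the length of the coding sequence. In GABA neurons the 9 members under 300 bases (Rpl37a, Rpl38, Rpl39, Rpl41, Rpl37, Rps21, Rps27, Rps28 and Rps29) had a median log2 ratio of 0.12, and 6 of them were above 0. The 47 members of 300 to 600 bases had a median of -0.12, and the 25 of 600 bases or more -0.17, with 2 above 0. Spearman's rho between length and ratio was -0.56 over the 81 members, as a description over genes of the same libraries, and -0.09 over 12370 other genes. Of these other genes 10923 code for 600 bases or more, so members and other genes cover unlike ranges of length. By the same length classes, the other genes had medians of 0.05, 0.05 and 0.03. In glutamate neurons the members' 3 medians were 0.11, -0.03 and -0.12, with a rho of -0.45. In astrocytes they were 0.19, -0.19 and -0.28, with a rho of -0.39, and in oligodendrocytes 0.27, 0.04 and 0.06, with a rho of -0.31. For other genes rho was -0.19, -0.18 and -0.26 in these 3 classes. Among nuclei with a mitochondrial share from 0.2% to 0.7%, a range chosen after values were seen, the order by length was the same in neurons: the medians were 0.46, 0.28 and 0.19 in GABA neurons and 0.71, 0.48 and 0.39 in glutamate neurons. The 30 members left in oligodendrocytes had medians in the same order, 0.59 (3 members), 0.52 (15) and 0.37 (12), with a rho of -0.08. In astrocytes rho was 0.12, but only 9 members were left, 1 of them under 300 bases, too few to show an order. With 1 library each, RNA length effects of library preparation and genotype cannot be told apart.

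**Figure D3:**
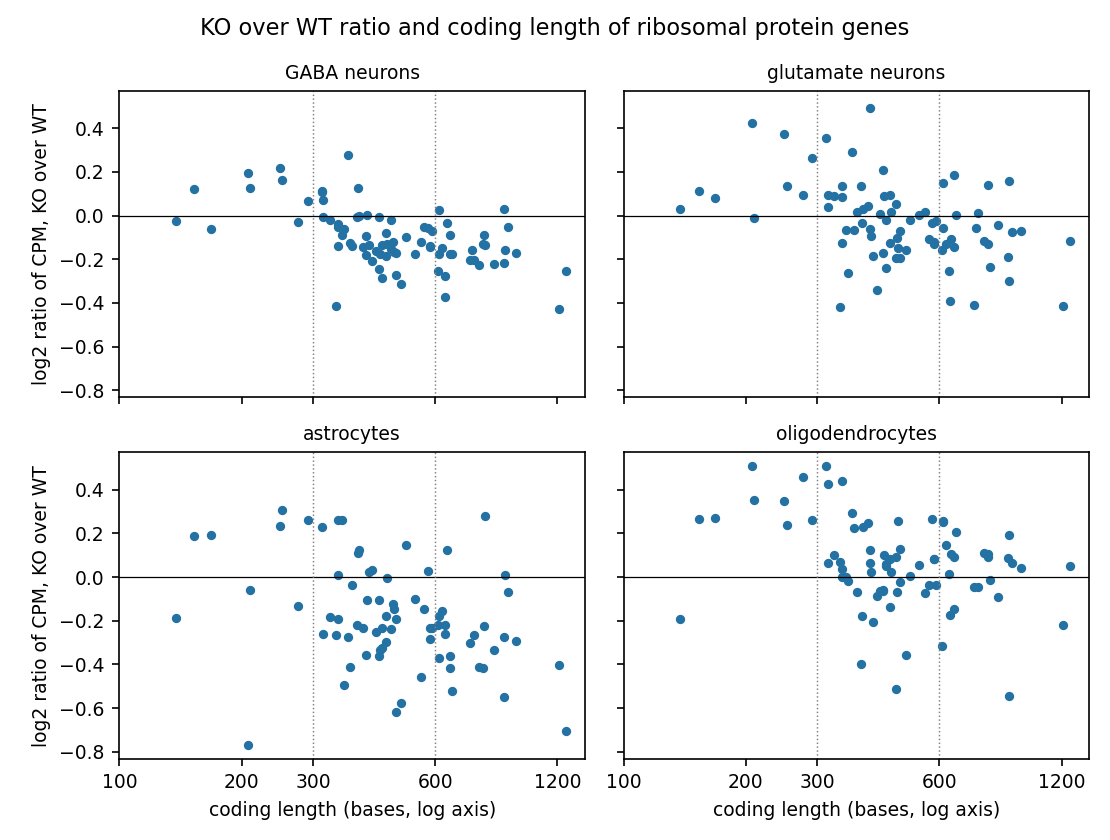
Log2 ratio of CPM, KO over WT (y axis), against coding length in bases (x axis, log scale) for ribosomal protein genes with at least 100 UMIs in 4 classes; points are genes and dotted lines mark 300 and 600 bases. In GABA neurons the median is 0.12 for the 9 shortest genes and -0.17 for the 25 longest.

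The lower share in KO neurons did not hold among nuclei with like amounts of mitochondrial RNA. Within each library, nuclei with more mitochondrially encoded UMIs also had more ribosomal protein UMIs, with a Spearman's rho across GABA nuclei of 0.65 in KO and 0.61 in WT, both measures being shares of the same nucleus's UMIs. Median mitochondrial shares were 0.316% in KO and 0.684% in WT for GABA neurons, 0.203% in KO and 0.578% in WT for glutamate neurons, and 0.673% in KO and 1.04% in WT for astrocytes. In GABA neurons the ribosomal protein share was higher in KO in 5 of 5 bins of mitochondrial share. Between 0.5% and 1% it was 0.484% in KO (685 nuclei) and 0.383% in WT (1868 nuclei), a log2 ratio of 0.34 (0.32 to 0.36). Glutamate neurons showed the same in 5 of 5 bins, and between 0.5% and 1% they had 0.529% in KO (162 nuclei) and 0.356% in WT (522 nuclei), a log2 ratio of 0.57. Oligodendrocytes were higher in KO in 5 of 5 bins and astrocytes in 4 of 5. Since the mitochondrial share differed between the libraries throughout, the ribosomal protein difference and the amount of RNA from outside the nucleus cannot be told apart.

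**Figure D4:**
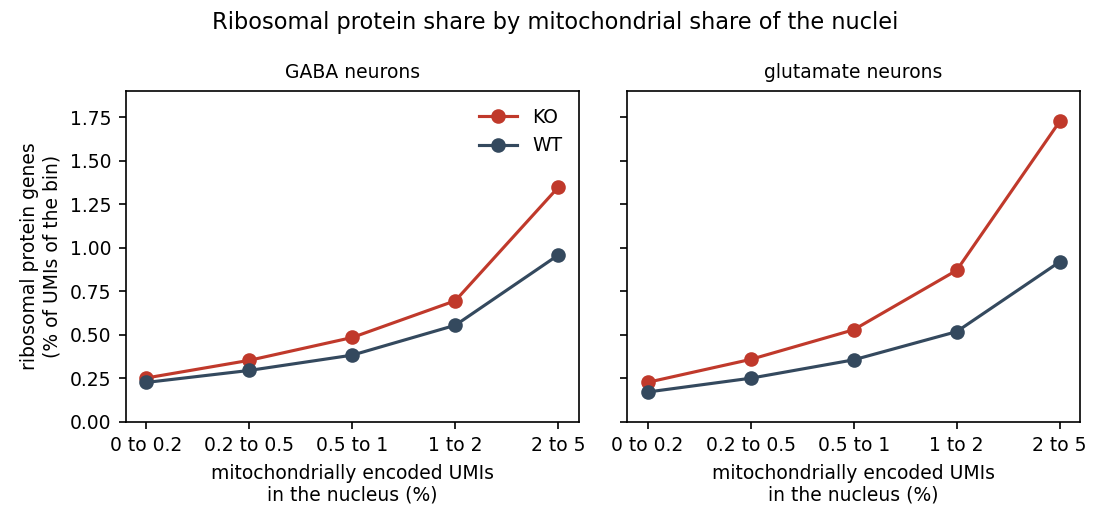
Share of UMIs from ribosomal protein genes (y axis, % of the UMIs of the bin) in GABA neurons and glutamate neurons of the KO library (red) and the WT library (dark blue), by the percentage of mitochondrially encoded UMIs in the nucleus (x axis, 5 bins of unequal width); points are sums over the nuclei of a bin. The share climbs with the mitochondrial share in both libraries, and KO lies above WT in all 5 bins of both classes.

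Other gene lists give the setting in GABA neurons, where 8019 of all 14142 genes were above 0 and 6123 below. All 13 mitochondrially encoded mRNAs were lower past 0.32 on the log2 scale in KO (8.14% of all genes were), with a median log2 ratio of -0.91. Of the nuclear genes of the mitochondrial ribosome 57 of 78 were above 0, with a median of 0.11, and the nuclear-encoded subunits of oxidative phosphorylation, many of them short housekeeping mRNAs, had 52 of 75 above 0 and a median of 0.10. The 15 translation factors whose mRNAs also start with pyrimidine runs had a median of 0.02, 10 above and 5 below 0. Among them the poly(A)-binding protein gene Pabpc1 had 35.7 CPM in KO and 46.3 CPM in WT, and Tpt1 45.3 CPM in KO and 57.3 CPM in WT. The 24 genes of ribosome assembly had a median of -0.02, with Nop56, a core protein of the box C/D particles, at 67.7 CPM in KO and 52.7 CPM in WT. The 18 regulators of ribosomal protein genes and translation with enough counts had a median of -0.10, and 13 of them were below 0. Mycn was lowest, at -1.19 from 32 UMIs in KO and 116 in WT. Rheb, the GTPase that activates mTOR, had 42.4 CPM in KO and 60.9 CPM in WT, a log2 ratio of -0.52 (-0.62 to -0.42). The highest went the other way, with Rps6ka1 at 0.32 (0.04 to 0.61) and Myc at 0.31 (-0.19 to 0.81). Fau and Rack1, which are ribosome parts outside the Rpl and Rps symbols, both had log2 ratios of 0.02.

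Transcripts of other cell types in the same nuclei also differed. In GABA neurons the prostaglandin synthase gene Ptgds, expressed by meninges and oligodendrocytes, had 126 CPM in KO and 28.3 CPM in WT, and the globin gene Hbb-bs 10.1 CPM in KO and 3.22 CPM in WT. The myelin gene Mbp went the other way, with 130 CPM in KO and 193 CPM in WT. Of 6 RNAs that stay in the nucleus 5 were above 0 (8019 of all 14142 genes were), with a median of 0.16. Higher past 0.32 were 2 of them (14.5% of all genes were). Malat1 had 36691 CPM in KO and 28208 CPM in WT, Snhg11 a log2 ratio of 0.42, Kcnq1ot1 0.05 and Neat1 -0.05. Their part in the ribosomal protein ratios was not tested.

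Every one of the 81 members with at least 100 UMIs over the 6 classes had a higher level in glia than in neurons, in both libraries, with the classes of each kind weighted equally. No count over all genes stands beside this one, and the nuclei were not matched for depth. Among nuclei of 1500 to 4000 UMIs, which held few of the GABA neurons as given above, the members' summed share in astrocytes was not above that of GABA neurons in KO. In WT it was. The median log2 ratio of glia over neurons was 1.42 in KO and 1.31 in WT. Among the members with the highest glial excess in WT were Rpl23a, Rpl18, Rps23, Rpl7 and Rps3, with log2 ratios in WT between 1.64 and 1.76. Of the 6 highest in WT, 2 were among the 12 highest in KO, so the top of the order was not shared. The lower end held more: Rpl7l1, Rpl22, Rpl36al, Rpl17 and Rps15a were among those with the lowest excess in WT, and 4 of the 6 lowest in WT were among the 12 lowest in KO. Rpl22, an RNA-binding ribosomal protein required for T cell development, had 47.8 CPM in glia and 34.8 CPM in neurons in KO, and 55.3 CPM in glia and 33.3 CPM in neurons in WT. Spearman's rho between the libraries over the 81 members was 0.71.

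Several ribosomal protein genes have a paralogue, a second gene of related sequence, and some pairs differed by cell class. Whether the products of a pair replace each other in ribosomes was not tested. The share of the paralogue in the UMIs of a pair is compared only between classes and libraries, since how often a transcript is tagged can differ between genes. Rpl7l1 took 45.0% of the Rpl7 and Rpl7l1 UMIs in KO GABA neurons and 43.9% in WT ones, and 49.5% in KO glutamate neurons and 49.8% in WT ones. In oligodendrocytes it took 23.9% in KO and 19.7% in WT, with intervals that overlap. Astrocytes had 35.7% (26.3 to 46.0) in KO and 19.3% (12.3 to 27.9) in WT, from 35 and 21 Rpl7l1 UMIs.

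Rpl22l1, which in the mouse is held down by the Rpl22 protein, was the other pair to stand out. It took 52.4% (50.8 to 53.9) of the pair's UMIs in all KO nuclei and 48.0% (46.7 to 49.4) in WT nuclei. In GABA neurons it took 52.2% (50.1 to 54.4) in KO and 47.3% (45.5 to 49.2) in WT, while Rpl22 itself had 34.5 CPM in KO and 34.6 CPM in WT. In oligodendrocytes the shares were 58.5% in KO and 46.7% in WT, and in glutamate neurons 48.8% in KO and 46.1% in WT. Astrocytes had 55.6% in KO and 56.5% in WT, and precursors 54.9% in KO and 64.1% in WT. In these 4 classes the intervals of the libraries overlapped.

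**Figure D5:**
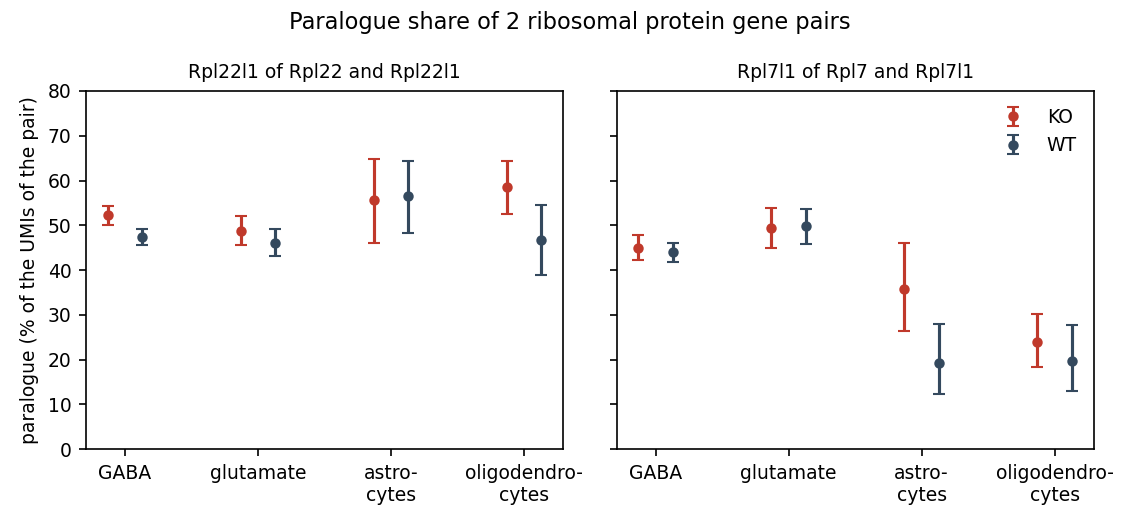
Share of the paralogue in the UMIs of a gene pair (y axis, %) for Rpl22l1 with Rpl22 and for Rpl7l1 with Rpl7 in 4 classes, KO left of WT; points are 1 library each and bars are exact 95% binomial intervals. Rpl7l1 is near 45% in GABA neurons of both libraries and at 23.9% in KO and 19.7% in WT oligodendrocytes.

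Over all nuclei the intervals of the libraries overlapped for Rpl36al, Rps27l and Rpl3l. Rpl36al, whose partner Rpl36a is X-linked, took 46.1% in KO and 44.5% in WT, and Rps27l, a p53 target, 8.71% in KO and 8.63% in WT. Rpl3l, the form of striated muscle, was nearly silent, with 13 UMIs in KO and 42 in WT, or 0.329% (0.175 to 0.561) of its pair in KO and 0.5996% (0.432 to 0.810) in WT. Rpl10l and Rpl39l, known from the testis, had 0 UMIs in both libraries. At the Rpl10 counts found, 3 UMIs would be 0.184% of the pair in KO and 0.135% in WT, the share that a count of 0 allows. Many ribosomal protein genes have processed copies elsewhere in the genome, and the treatment of reads that match both is not stated in the sources.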

How the data were processed

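Single-nucleus 5' libraries were compared, 1 labelled KO and 1 labelled WT. The deposited tables hold raw UMI counts per gene and barcode, made with Cell Ranger 6.0.0 on mm10 per the submitters' processing notes. The annotation, the handling of intronic reads and strand, and the calling of nuclei are not stated in these sources. Barcodes with under 500 genes (143 in KO, 12 in WT) or over 5% mitochondrially encoded UMIs (390 in KO, 257 in WT) were left out, and so were doublets called by Scrublet in scanpy 1.11.5 (222 in KO, 422 in WT) at an expected rate of 0.8% per 1000 nuclei.

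Nuclei were gated one by one. A class needed 40% of its markers, at least 3 of them, and a lead of 20 percentage points. GABA and glutamate neurons needed 2 markers and more than the other type. Subtypes needed 3 markers and a lead of 10 points. Leiden clusters (leidenalg 0.10.2), made without ribosomal protein and mitochondrial genes, served as an alternative. UMIs were summed per library and class and expressed per 1e+06 UMIs (CPM). Ratios are log2 of CPM, KO over WT, with exact conditional binomial intervals. Levels have exact Poisson and shares exact Clopper-Pearson intervals at 95%. There was no test and no p-value. Members are summarised at 100 UMIs or more over both libraries, with 0.32 on the log2 scale as the size named, beside all genes. The scripts were tested on simulated data.

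Members were named by rule: the 5 highest and 5 lowest ratios in each of 4 classes, the 6 highest and 6 lowest glia over neuron ratios in WT, and members with known roles or paralogues. A few genes picked in this way are not reported here. The members and lists were chosen with earlier results of these data known. The coding length is the longest coding sequence in GENCODE M21 on the same build. The length classes, the mitochondrial bins, the window of 1500 to 4000 UMIs and the genes named for 1 direction in all 4 classes were chosen after values were seen. Alternative scalings used edgeR 4.0.16 in R 4.3.3.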

Additional observations from a re-analysis of the deposited data

Results flagged for a closer look

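The members' median log2 ratio of KO over WT had opposite signs in different classes: -0.13 in GABA neurons, -0.039 in glutamate neurons, -0.22 in astrocytes and -0.0045 in oligodendrocyte precursors, but 0.064 in oligodendrocytes and 0.081 in microglia. The difference between classes was not tested, since there is 1 library of each genotype.

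Barcodes that were left out held a much larger share of ribosomal protein UMIs than the nuclei kept, at 0.428% in KO and 0.434% in WT. In barcodes with under 500 genes it was 3.17% in KO and 2.09% in WT. In barcodes with over 5% mitochondrially encoded UMIs it was 6.38% in KO and 3.65% in WT.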

How the results depend on the processing

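No paired analysis was possible because each genotype has 1 library. Of 440 alternatives computed for 40 named values of single members, 389 moved by less than counting error, 36 by more and 15 turned round. The order of the 15 class pairs was shared for 13 to 15 of them. The members' median turned round with a mitochondrial ceiling of 1% in GABA neurons (0.039), glutamate neurons (0.10), astrocytes (0.00029) and precursors (0.13, 1 member left), and was 0.36 in oligodendrocytes. Within 0.2% to 0.7%, chosen after seeing the data, it was 0.27 in GABA neurons, 0.48 in glutamate neurons, -0.032 in astrocytes, 0.40 in oligodendrocytes and 0.18 in precursors (1 member left). There single members turned round too: in GABA neurons Rplp1 (0.17), Rps19 (0.058) and Rps12 (0.11), in glutamate neurons Rplp1 (0.22), Rpl3 (0.046), Rps3 (0.11), Rps19 (0.14) and Rpl23 (0.28), and in oligodendrocytes Rpl23a (0.68), Rpl22 (0.13) and Rpl13a (0.22). With the 1% ceiling Rpl23a (0.13), Rpl22 (0.13) and Rpl13a (0.44) did so in oligodendrocytes. Thinning turned Rpl23a there (0.13), and moved the median to -0.11 in GABA neurons, 0.16 in oligodendrocytes and 0.051 in precursors (3 members left).

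TMM scaling gave -0.19 in GABA neurons, -0.093 in glutamate neurons, 0.10 in oligodendrocytes and 0.00095 in precursors, and median-of-ratios scaling -0.20 in GABA neurons, -0.10 in glutamate neurons and 0.0038 in precursors. The median of all genes shifted by 0.08 or less under either scaling. With doublets kept GABA neurons had -0.11. With classes from clusters glutamate neurons had -0.10 and microglia 0.18. At a minimum of 1000 genes oligodendrocytes had 0.11. Without the clusters led by microglial genes in neurons or by Ttr, oligodendrocytes had 0.027 and precursors 0.0061, and without shared barcodes precursors had 0.022 (both chosen after seeing the data). A stricter gate turned precursors to 0.35 (1 member left) and microglia to -0.48 (2 left), and a minimum of 20 UMIs turned microglia to -0.0044. The cause of these was not tested. No value came from a minimum of 1000 UMIs in astrocytes, precursors and microglia, or from the mitochondrial limits and thinning in microglia, where too few UMIs were left.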
